A study of Mus musculus with 1016 samples.

Results

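Chromosome 11 is the most gene-rich autosome of the mouse in this comparison, and its replication was followed cell by cell from the zygote to the inner cell mass (ICM) of the blastocyst. All 50 kb bins of the chromosome were taken except the first 13 Mb and the last 5 Mb, which gave 2081 bins, chr11:13000001-117050000 in the mm10 build, of 49264 bins on chromosomes 1 to 19. The other 18 autosomes were trimmed the same way and held 40324 bins. The label was checked against the annotation. The region carried 1427 protein-coding genes, or 13.7 per Mb, which ranked 1 of 19 autosomes, with chromosome 7 next at 13.3 and chromosome 17 at 12.8. Its GC content of 43.6% also ranked 1 of 19, and repeats covered 30.6% of its bases, rank 17. Chromosome 11 was chosen by its gene density and by its mean share in morulae and 2-cell embryos, already known, so those values are given as a description.

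Eukaryotic chromosomes replicate in a fixed order in each cell type. Origins in open, transcribed and gene-rich chromatin tend to fire early in S phase, whereas gene-poor DNA at the nuclear periphery tends to wait, and the alternation of both yields early and late replication domains. In the mouse embryo, transcription starts weakly in the zygote and strongly in the late 2-cell embryo (zygotic genome activation, ZGA). The drug α-amanitin binds RNA polymerase II and blocks transcription, DRB inhibits the kinase that releases the polymerase into elongation, and KDM5B is an enzyme that removes methyl groups from lysine 4 of histone H3, a mark of active promoters.

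In single-cell Repli-seq, the DNA of 1 cell is amplified and sequenced at low depth, and each bin is called replicated or not replicated from its copy number. The replication score of a cell is the percent of its bins that are replicated. Of 1016 labelled samples, 733 had a column of states and 714 of these had a score of 10 to 90%. The cells fell into 14 groups: 66 zygotes, 63 2-cell, 55 4-cell, 56 8-cell, 40 16-cell, 47 morula and 70 ICM cells, 57 zygotes made by in vitro fertilisation (IVF), 57 parthenotes, 21 maternal and 17 paternal pronuclei, and 2-cell embryos with α-amanitin (42 cells), DRB (67) or Kdm5b mRNA (56). Chromosome 11 had no called bin in 1 4-cell and 1 Kdm5b cell, which left 712. Embryos had (C57BL/6J x CBA) mothers and DBA/2J fathers. Parthenotes, oocytes activated with strontium and without sperm, and maternal pronuclei were (C57BL/6J x CBA)F1, and paternal pronuclei were DBA/2J. α-amanitin was given at 0.1 mg/ml and DRB at 100 µM from 17 h after hCG, and Kdm5b mRNA was injected at 2 µg/µl at 18 h. The control 2-cell embryos carried none of these and are not labelled as injected. No label ties a cell to an animal, cells of one embryo cannot be recognised, and every group therefore counts as 1 pooled sample: no test between groups was made, and differences are set against the spread between collection times. States cannot show whether a treatment took effect. No 2 columns were identical, and the most alike cells of any group shared 86.2% of bins.

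The promoters of 4 genes show the kinds of DNA that the early and late domains of the chromosome hold (RefSeq, GRCm38.p6; 250 bases before to 50 after the gene start, 300 in all, with CG dinucleotides in capitals). They are Polr2a, which encodes the largest subunit of RNA polymerase II (chr11:69758584-69758883, minus strand), Hoxb4 of the Hoxb homeobox cluster (chr11:96318017-96318316, plus strand), Cdc42ep4, an effector of the small GTPase CDC42 in the domain that differed most after α-amanitin (chr11:113751766-113752065, minus strand), and the odorant receptor gene Olfr1 in a gene cluster that was late in 2-cell embryos (chr11:73399446-73399745, minus strand).
Polr2a: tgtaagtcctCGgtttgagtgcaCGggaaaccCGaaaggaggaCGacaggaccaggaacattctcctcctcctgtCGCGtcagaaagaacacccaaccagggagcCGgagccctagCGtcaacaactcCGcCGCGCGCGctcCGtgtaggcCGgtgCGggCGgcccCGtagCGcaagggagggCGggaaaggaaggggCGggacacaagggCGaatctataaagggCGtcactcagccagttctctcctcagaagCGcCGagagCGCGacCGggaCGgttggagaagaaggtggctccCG
Hoxb4: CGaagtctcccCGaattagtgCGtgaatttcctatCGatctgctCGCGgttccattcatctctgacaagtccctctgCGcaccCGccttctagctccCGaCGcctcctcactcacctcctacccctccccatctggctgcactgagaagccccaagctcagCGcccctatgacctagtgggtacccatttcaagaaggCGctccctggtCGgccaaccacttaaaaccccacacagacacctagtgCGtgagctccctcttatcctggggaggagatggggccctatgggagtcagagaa
Cdc42ep4: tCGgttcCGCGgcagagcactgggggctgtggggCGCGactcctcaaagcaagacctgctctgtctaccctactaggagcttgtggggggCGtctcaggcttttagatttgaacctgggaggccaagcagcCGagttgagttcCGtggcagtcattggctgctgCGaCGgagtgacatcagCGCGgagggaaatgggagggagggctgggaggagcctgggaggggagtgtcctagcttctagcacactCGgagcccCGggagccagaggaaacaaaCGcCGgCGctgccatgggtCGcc
Olfr1: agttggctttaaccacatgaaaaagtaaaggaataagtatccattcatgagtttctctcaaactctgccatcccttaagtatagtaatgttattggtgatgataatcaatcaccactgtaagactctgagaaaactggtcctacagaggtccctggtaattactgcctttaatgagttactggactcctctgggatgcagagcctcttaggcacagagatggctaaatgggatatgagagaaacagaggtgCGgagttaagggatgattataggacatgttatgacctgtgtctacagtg
They hold 30, 14, 18 and 1 CG, in that order. Counted over the same 300 bases, 52.8% of 1429 promoters in early domains and 22.2% of 185 promoters in late domains of chromosome 11 had 10 or more CG, against 44.5% of 25748 promoters of all autosomes. In the domain of Olfr1 the share was 3.33% of 30 promoters.

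The mean excess of chromosome 11 over the other autosomes was above 0 in 12 of 14 groups, and largest from the 4-cell stage to the morula. The 12 include parthenotes, whose median over cells was -0.017. Being ahead was not particular to chromosome 11. Chromosome 19 was ahead in every group, by 0.106 in 8-cell and 16-cell embryos and 0.095 in morulae. The excess is the share of chromosome 11 bins replicated in a cell minus the share of other autosomal bins in the same cell, averaged over cells. It was 0.047 at the zygote stage and 0.035 at the 2-cell stage. The 4-cell, 8-cell and 16-cell stages had 0.111, 0.090 and 0.123, the morula 0.108 and the ICM 0.045. The chromosome was the earliest of 19 at the 4-cell, 16-cell and morula stages and ranked 2 in 8-cell embryos, whereas it ranked 6 in zygotes, 5 in 2-cell embryos and 4 in the ICM. In morulae the mean share of cells replicated was 0.678 on chromosome 11 and 0.571 on the other autosomes, and in 2-cell embryos 0.535 and 0.499.

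Seen as a count of cells, chromosome 11 was ahead in 41 of 63 2-cell cells, or 65.1% (exact 95% binomial interval 52 to 76.7%, counting error only, as for all intervals here). It was ahead in 49 of 66 zygotes, in 46 of 54 4-cell cells (85.2%, 72.9 to 93.4%), in 35 of 40 16-cell cells (87.5%, 73.2 to 95.8%) and in 41 of 47 morula cells (87.2%, 74.3 to 95.2%). In the ICM it was ahead in 45 of 70 cells (64.3%, 51.9 to 75.4%). The mean shares of 2-cell embryos and morulae took part in the choice of the chromosome, so their counts are a description. Each group is a pooled sample, and its cells are not replicates of a stage. Nothing is therefore read from the overlap of intervals between stages.

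Single cells spread widely around these means. The excess of single zygotes ran from -0.774 to 0.708 with a median of 0.050, and that of single morula cells from -0.161 to 0.265 with a median of 0.108. The standard deviation (SD) over cells was 0.225 in zygotes, the highest of 19 autosomes there, 0.186 in 2-cell embryos and 0.081 in morulae. In 9 of 66 zygotes and 6 of 57 parthenotes the whole region was in one state (at most 2% or at least 98% of bins replicated), against 4 of 63 2-cell and 0 of 47 morula cells, which allows a share of up to 6.38% of morula cells. For zygotes this was 13.6% of cells, close to the median of 12.1% for the other autosomes. From its first to its last bin, the region passed through a median of 42.5 alternating segments per zygote, 49 per 2-cell blastomere and 32 per morula cell. Other autosomes over the same number of bins had 49.5, 53.4 and 42.7.

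**Figure D1:**
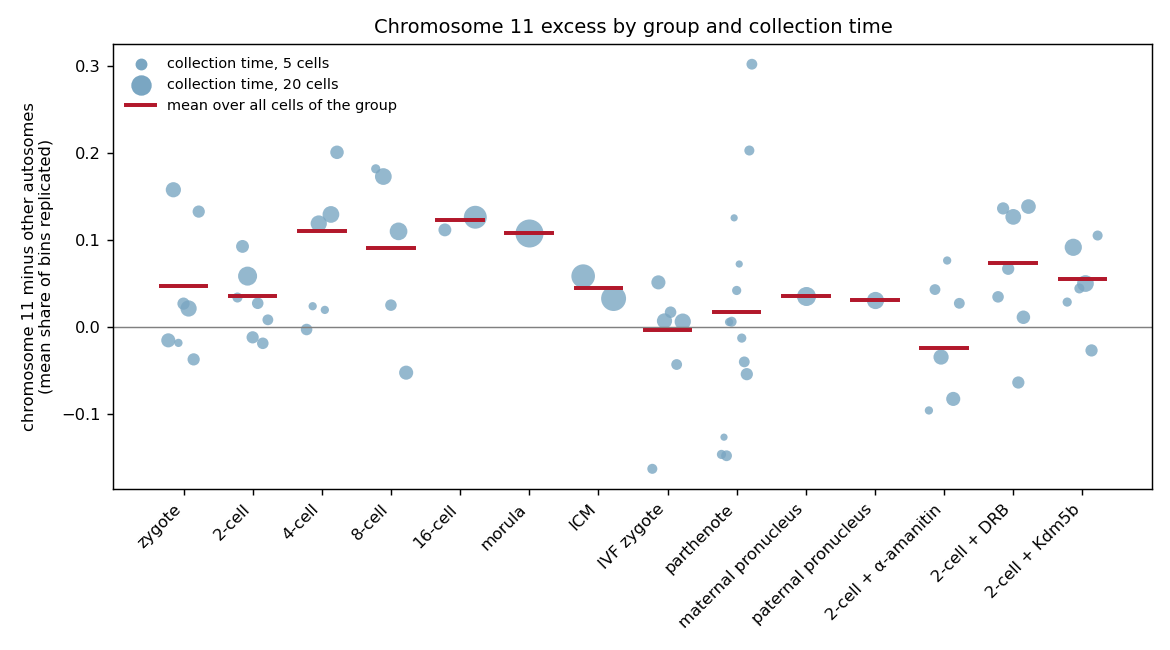
Excess of chromosome 11 (y axis, mean share of its bins replicated minus that of the other autosomes) in 14 groups (x axis). Each point is 1 collection time, sized by its number of cells, and the red line is the mean over all cells, highest at 0.123 in 16-cell embryos and lowest at -0.024 after α-amanitin.

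Collection times differed within groups by as much as many groups differed from each other. Over times with 3 or more cells, the excess of zygotes ranged from -0.038 to 0.158 over 7 times, that of 2-cell embryos from -0.019 to 0.093 over 7, that of 4-cell embryos from -0.003 to 0.201 over 6 and that of 8-cell embryos from -0.053 to 0.182 over 5. The 8-cell cells of 72 h were the low ones, with 4 of 11 cells ahead, against 4 of 4 at 66 h and 15 of 16 at 67 h. Embryos of 16 cells gave 0.112 at 77 h (9 cells) and 0.126 at 80 h (31 cells), and the ICM 0.058 in its earlier window (96 to 100 h, 33 cells) and 0.033 in its later one (37 cells). The 2-cell value took part in the choice of the chromosome, so the differences of 16-cell and 4-cell embryos from it, 0.087 and 0.075, are a description. Morulae had 1 collection window and give no such spread.

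Cells were put into 4 classes by score to follow the excess through S phase. In morulae it was 0.109 at a score of 10 to 30% (7 cells), 0.104 at 30 to 50% (9), 0.121 at 50 to 70% (15) and 0.097 at 70 to 90% (16), so no class stood apart. In 4-cell embryos it was 0.166 in the first class, where chromosome 11 was ahead in 15 of 15 cells, and 0.123 in the second, but 0.007 at 50 to 70% (10 cells). In 2-cell embryos the 8 cells under 30% gave 0.007, the 23 cells at 30 to 50% 0.046, the 26 cells at 50 to 70% 0.056 and the 6 cells at 70 to 90% -0.056. Zygotes gave -0.024 (5 cells), 0.056 (21), 0.079 (26) and 0.00046 (14) in the same classes.

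The other 2 most gene-rich autosomes did not share the pattern. Chromosome 7 had an excess of -0.050 in 2-cell embryos and 0.00041 in morulae, and chromosome 17 had -0.106, the lowest of 19, and -0.0015. Chromosome 9, the third in GC content at 42.9%, had 0.056 and 0.099. Across 19 autosomes, Spearman's rho between excess and gene density was -0.24 in 2-cell embryos, 0.51 in morulae and -0.64 after α-amanitin. Without chromosome 11 it was -0.37, 0.42 and -0.63. With repeat content rho was -0.70 in 2-cell embryos, -0.69 in morulae and -0.16 after α-amanitin. Chromosomes are not independent replicates, and all 19 points of a group share the same cells.

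**Figure D2:**
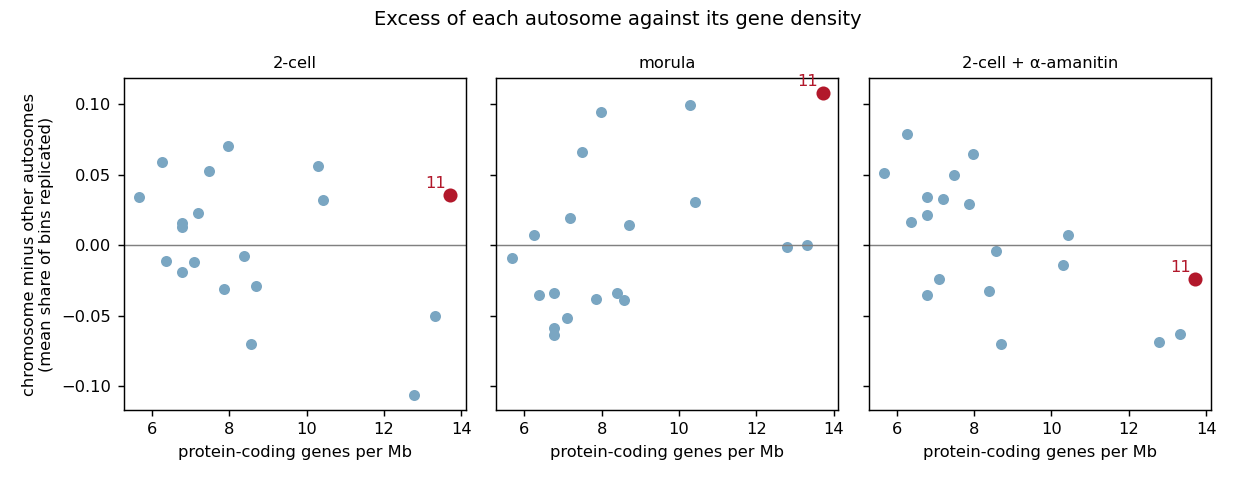
Excess of each of 19 autosomes (y axis) against protein-coding genes per Mb (x axis) in 2-cell embryos, morulae and α-amanitin-treated 2-cell embryos, with chromosome 11 in red. Chromosome 11 lies at 0.035, 0.108 and -0.024, at 13.7 genes per Mb.

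Chromosome 11 was richer in GC than the other autosomes. In 2-cell cells, bins with a GC content of 48% or more made up 16.4% of the region and 8.62% of other autosomes, and bins under 38% GC made up 9.27% and 19.3%. Within classes of like GC content, chromosome 11 was still ahead in morulae, but by 0.033 in place of 0.108. The same standardisation gave 0.023 in place of 0.036 in 2-cell embryos, 0.062 in place of 0.104 in 4-cell embryos and 0.063 in place of 0.123 in 16-cell embryos, each over bins. It did not lower every value: parthenotes had 0.021 in place of 0.018, maternal pronuclei 0.039 in place of 0.036, IVF zygotes 0.0049 in place of -0.0041 and Kdm5b embryos 0.049 in place of 0.057. Across autosomes, rho between excess and GC content was -0.05 in 2-cell embryos, 0.65 in morulae and -0.54 after α-amanitin. The richest class, 48% GC and over, had a relative share (share of cells replicated minus the group's mean over all trimmed bins) of 0.037 on chromosome 11 and -0.025 elsewhere in 2-cell embryos. In morulae the values were 0.254 and 0.201. Bins without a gene start were ahead too, at 0.024 on chromosome 11 against -0.060 elsewhere in morulae, and bins with 2 or more gene starts were at 0.230 against 0.148.

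**Figure D3:**
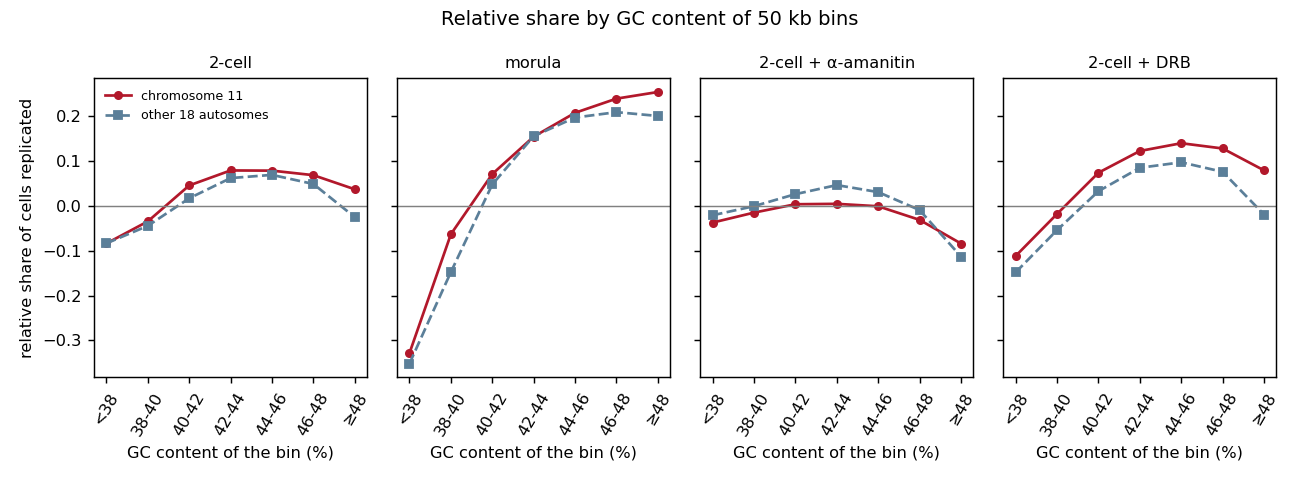
Relative share of cells replicated (y axis) by GC content of the bin in 7 classes (x axis), on chromosome 11 (red) and on the other 18 autosomes (blue), in untreated 2-cell embryos, morulae and 2-cell embryos with α-amanitin or DRB. In morulae the line of chromosome 11 climbs with GC content, to 0.254 in the richest class. That of the other autosomes reaches 0.209 at 46 to 48% GC and is at 0.201 in the richest class. After α-amanitin both fall in the richest class, to -0.084 and -0.113.

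Along the chromosome, 34 domains alternated, 17 early and 17 late. They were called from the mean relative share of 4-cell, 8-cell and 16-cell embryos and morulae as runs of at least 10 bins above or below 0, so those 4 groups are described and the other 10 were not used. Early domains covered 68.6% of the region's bins, against 53.3% on the other autosomes, with a median size of 2.25 Mb, 18.2 genes per Mb and 45.3% GC. Late domains had a median size of 1.25 Mb, 3.85 genes per Mb and 39.9% GC. Domains are numbered from the centromeric side.

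The contrast, the mean share in early minus that in late domains, was 0.129 in zygotes and 0.125 in 2-cell embryos, groups that took no part in the calling. It was 0.337 in 4-cell embryos, 0.272 in 8-cell and 0.376 in 16-cell embryos and 0.460 in morulae. The ICM, again not used, gave 0.190. On the other autosomes the zygote contrast was 0.183, that of the 2-cell embryo 0.133, that of the morula 0.467 and that of the ICM 0.235, so the division between early and late was no sharper on chromosome 11 in those groups. In 4-cell embryos it was the sharpest of 19 autosomes, at 0.337 against 0.279 elsewhere. Early domains were ahead of late ones in 45 of 63 2-cell cells (71.4%, 58.7 to 82.1%), in 46 of 47 morula cells (97.9%, 88.7 to 99.9%) and in 51 of 70 ICM cells (72.9%, 60.9 to 82.8%). Over collection times, the contrast of 8-cell embryos ran from -0.010 to 0.735, and that of 16-cell embryos was 0.023 in the 77 h cells and 0.478 in the 80 h cells. The 4-cell to morula values are those of the calling groups, so their size beside the other groups is a description.

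**Figure D4:**
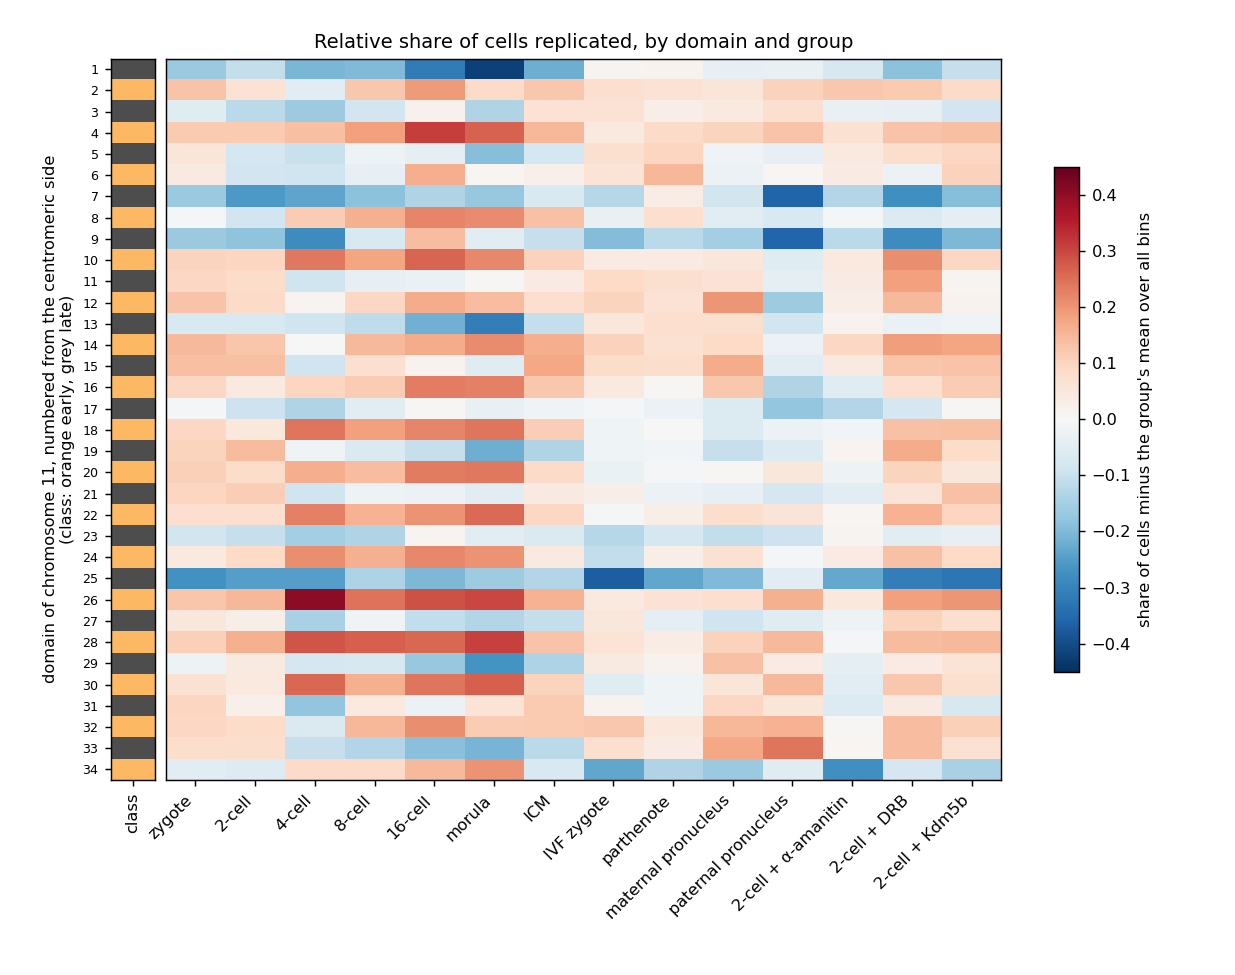
Relative share of cells replicated in the 34 domains of chromosome 11 (rows, numbered from the centromeric side) in 14 groups (columns), red above and blue below the group's mean. The 4-cell to morula columns, which defined the classes in the left strip, hold both extremes, -0.419 and 0.404. The 8-cell column among them runs only from -0.200 to 0.269. Of the columns not used, IVF zygotes reach -0.371 and paternal pronuclei -0.361, and the parthenote column runs from -0.232 to 0.148.

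Between zygotes and 2-cell embryos, 0 of 34 domains moved by 0.2 in either direction, against 0% of all domains earlier and 1.08% later. The earliest domains of 2-cell embryos were domains 28, 26 and 19. Domain 28 holds Bcas3, Ankfn1 and the RNA-binding protein gene Msi2 and had a relative share of 0.159. Domain 26, with Asic2, which encodes an acid-sensing ion channel, the myosin gene Myo1d and the phosphatase gene Ssh2, was at 0.148. It was replicated (50% or more of its bins) in 44 of 63 2-cell cells and in 53 of 54 4-cell cells (98.1%, 90.1 to 100.0%). Both stayed early in morulae, at 0.309 and 0.300. Domain 19, with the glutamate receptor gene Gria1 and the neuromedin receptor gene Nmur2, was at 0.143 in 2-cell embryos and is a late domain by its later stages. It was replicated in 40 of 63 2-cell cells (63.5%, 50.4 to 75.3%), 20 of 54 4-cell, 24 of 56 8-cell, 18 of 40 16-cell and 13 of 47 morula cells (27.7%, 15.6 to 42.6%). These domains were picked by their 2-cell values and classed by 4-cell to morula cells, so the counts are a description.

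The latest domains of 2-cell embryos were 7, 25 and 9. Domain 7 (Ccdc85a, the kinase gene Vrk2 and Fancl, a ubiquitin ligase gene of DNA repair) was at -0.258, domain 25 at -0.249 and domain 9 (Asb3, the hormone gene Stc2 and Gm17332) at -0.180. Domain 25, chr11:73300001-74350000, combines 31.4 genes per Mb with a GC content of 39.5%, and 28 of its 33 protein-coding genes encode odorant receptors. It was below the group's mean in 14 of 14 groups, from -0.371 in IVF zygotes to -0.047 in paternal pronuclei, and was replicated in 14 of 63 2-cell cells (22.2%, 12.7 to 34.5%) and 6 of 54 4-cell cells. Domain 25 was picked by its 2-cell value and classed late from the 4-cell to morula groups, so those groups are a description. The sensory channel gene Trpv3 and the zinc finger gene Zfp735 lie in it as well. Over all 82 olfactory receptor genes of the region the median relative share was -0.203 in 2-cell embryos, against 0.039 for all 1427 protein-coding genes of the region, and 0.041 in morulae, against 0.264.

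From the 2-cell embryo to the morula, 3 of the 34 domains moved earlier by 0.2 or more and 5 moved later. Over all 744 autosomal domains, 15.1% moved earlier and 18.1% later by the same rule. The calling of domains used morulae, so nothing is read from these counts. With a limit of 0.1 the counts were 13 and 9, against 40.5% and 28.8% of all domains. The domains that moved earlier were 8 (Eml6, Asb3 and the spectrin gene Sptbn1; by 0.300), 34 (the zinc transporter gene Slc39a11, Sdk2 and Rnf157; by 0.259) and 30 (Car10, Gm11639 and the kinase gene Prkca; by 0.226). Domain 30 is the largest, 14.7 Mb with 391 genes. It was replicated in 35 of 63 2-cell cells (55.6%, 42.5 to 68.1%) and 43 of 47 morula cells (91.5%, 79.6 to 97.6%). Domain 30 was named for its move between these stages, so the counts of cells are a description. Without the 21 control cells of 35 h, 5 domains moved earlier, domains 18 (0.212) and 22 (0.208) being the added ones.

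The 5 domains that moved later were all late domains, a class with 3.85 genes per Mb on chromosome 11. They were domain 19 (by -0.363), domain 1 (Vstm2a, the translocon gene Sec61g and Pom121l12; by -0.312), domain 29 (Car10, Ankfn1 and Stxbp4; by -0.309), domain 33 (Kcnj16, Kcnj2 and Sox9; by -0.289) and domain 13 (Tenm2, Gabrb2 and Atp10b; by -0.242). Just outside lay domain 18 at 0.193 and domain 15 at -0.187. The 5 that moved later held 1.60, 0.822, 2.82, 1.22 and 1.57 genes per Mb. The other late domains ran from 0 (domains 5 and 15) to 31.4 (domain 25), so low density was not particular to the 5. Domain 33 holds 3 protein-coding genes, the potassium channel genes Kcnj16 and Kcnj2 and Sox9, a regulator of cartilage and testis development. Sox9 itself stayed near the group's mean at both stages, as given below. Domain 33 was replicated in 38 of 63 2-cell cells (60.3%, 47.2 to 72.4%) and 14 of 47 morula cells (29.8%, 17.3 to 44.9%), and already in 17 of 54 4-cell cells. Domains 33 and 13 were named for their move between 2-cell embryos and morulae, so their counts there are a description. Domain 13, 7.0 Mb long, was replicated in 27 of 63 2-cell, 11 of 47 morula and 31 of 70 ICM cells. Its 2-cell values were tight, from -0.089 to -0.035 over 7 collection times.

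Between the 2-cell and 4-cell stages, 12 of 17 early domains moved earlier and 15 of 17 late domains later, at any size, with 4-cell cells among those used to call the domains. By 0.2 or more, 3 domains moved earlier (26, 30 and 8) and 2 later (15 and 31), against 4.44% and 5.24% of all domains. From the morula, also used in the calling, to the ICM, 14 of 17 early domains were later and 15 of 17 late domains earlier. Nothing is read from these directions. By 0.2 or more, 4 domains were earlier in the ICM (15, overlapped by the B-cell factor gene Ebf1, by 0.228, and 13, 3 and 1). By the same limit 1 was later (34, by -0.271), against 6.18% earlier and 5.65% later of all domains.

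In IVF zygotes and parthenotes chromosome 11 was not clearly ahead. Times here count from insemination and activation. The excess was -0.004 in IVF zygotes, with 29 of 57 cells ahead (50.9%, 37.3 to 64.4%), and 0.017 in parthenotes, with 26 of 57 ahead (45.6%, 32.4 to 59.3%). In naturally fertilised zygotes 74.2% of cells (62 to 84.2%) were ahead. Between collection times the parthenote excess ran from -0.148 to 0.302 and that of IVF zygotes from -0.163 to 0.051, so the difference of IVF from natural zygotes, -0.051, lies within the combined SD of 0.108. The sign of either excess turned with the setting: without the 6 cells of 12 h the parthenote value was -0.016, and without the 5 cells of 5.5 h the IVF value was 0.011. The contrast was near 0, at -0.015 in IVF zygotes and -0.0025 in parthenotes, against 0.082 and 0.071 on the other autosomes, and early domains were ahead of late ones in only 20 of 57 IVF cells (35.1%, 22.9 to 48.9%) against 44 of 66 zygotes (66.7%, 54 to 77.8%). Late domains of chromosome 11 were ahead of late domains elsewhere by 0.047 in IVF zygotes and 0.055 in parthenotes, and by 0.054 in natural zygotes as well. Early domains of chromosome 11 minus those elsewhere gave -0.050, -0.018 and -0.00088 in the same order. The contrast of IVF minus natural zygotes was -0.144, slightly past the combined SD of 0.136. By 0.2 or more, 0 of 34 domains differed in either direction, against 0.134% of all domains earlier and 2.28% later. Domain 1 was 0.181 earlier in IVF than in natural zygotes, the 1 domain of 34 past its own spread. The share of all autosomal domains past theirs was not counted.

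By the study's methods both pronuclei of a zygote were processed, so nuclei of these groups can share a zygote, but no label says which belong together. The pronuclei had an excess of 0.036 (21 maternal) and 0.031 (17 paternal), with 13 of 21 and 10 of 17 cells ahead, and the contrast was 0.022 and 0.122. Domain 12 (Tenm2, the axon guidance gene Slit3 and Wwc1) differed most among the 34, at 0.20 in maternal and -0.161 in paternal pronuclei. Domain 7 was at -0.084 and -0.361. By 0.2 or more, 5 of 34 domains were earlier in maternal pronuclei (12, 7, 16, 15 and 9) and 0 were later, against 3.09% and 3.23% of all domains. With so few nuclei the exact intervals are wide: domain 33, replicated in 16 of 21 maternal (76.2%, 52.8 to 91.8%) and 15 of 17 paternal pronuclei (88.2%, 63.6 to 98.5%), had intervals that overlap over most of their length.

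After α-amanitin, chromosome 11 was not ahead: its excess was -0.024, rank 14 of 19, and it was ahead in 18 of 42 cells (42.9%, 27.7 to 59%). The value was 0.073 with DRB, with 52 of 67 cells ahead (77.6%, 65.8 to 86.9%), and 0.054 with Kdm5b, with 37 of 55 cells (67.3%, 53.3 to 79.3%), beside 0.035 in untreated 2-cell embryos. All 3 treated groups are compared with the same control cells. The differences were -0.059 for α-amanitin, 0.038 for DRB and 0.019 for Kdm5b. None of the 3 exceeded the combined SD between collection times, which was 0.081, 0.086 and 0.062. At times present in both groups, α-amanitin was lower than control at 35 h and 38 h (by -0.015 and -0.110) and higher at 37 h and 39 h (by 0.088 and 0.046), with 3 to 11 treated cells a time. DRB was higher at 4 of 5 shared times and Kdm5b at 3 of 4. Between the treated groups, which share no cells, α-amanitin was 0.097 below DRB. Their SDs between collection times were 0.071 and 0.076, and this difference too lies within the combined SD.

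Within the chromosome, the contrast was 0.023 after α-amanitin, against 0.125 in controls, 0.151 with DRB and 0.115 with Kdm5b. Early domains were ahead of late ones in 22 of 42 α-amanitin cells (52.4%, 36.4 to 68%), in 50 of 67 DRB cells (74.6%, 62.5 to 84.5%) and in 40 of 55 Kdm5b cells (72.7%, 59 to 83.9%). The α-amanitin difference of -0.102 was just within the combined SD of 0.112. On the other autosomes the contrast was 0.133 in controls and 0.055 after α-amanitin, a difference of -0.079. After α-amanitin 14 of 17 early domains of chromosome 11 were later than in controls, with a median of -0.061, against a median of -0.028 over all early autosomal domains. With DRB 15 of 17 early domains were earlier, and with Kdm5b 12 of 17, with medians of 0.051 and 0.021. Over all early autosomal domains these medians were 0.020 and 0.00084. Of autosomal domains of both classes, 49.1% were earlier after α-amanitin, 54.4% with DRB and 47.3% with Kdm5b. These shares mix early and late domains. No share was counted for early autosomal domains alone, so nothing particular to chromosome 11 is read from the counts out of 17. A relative share carries any shift of the whole chromosome, so these counts are not separate from the excess.

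**Figure D5:**
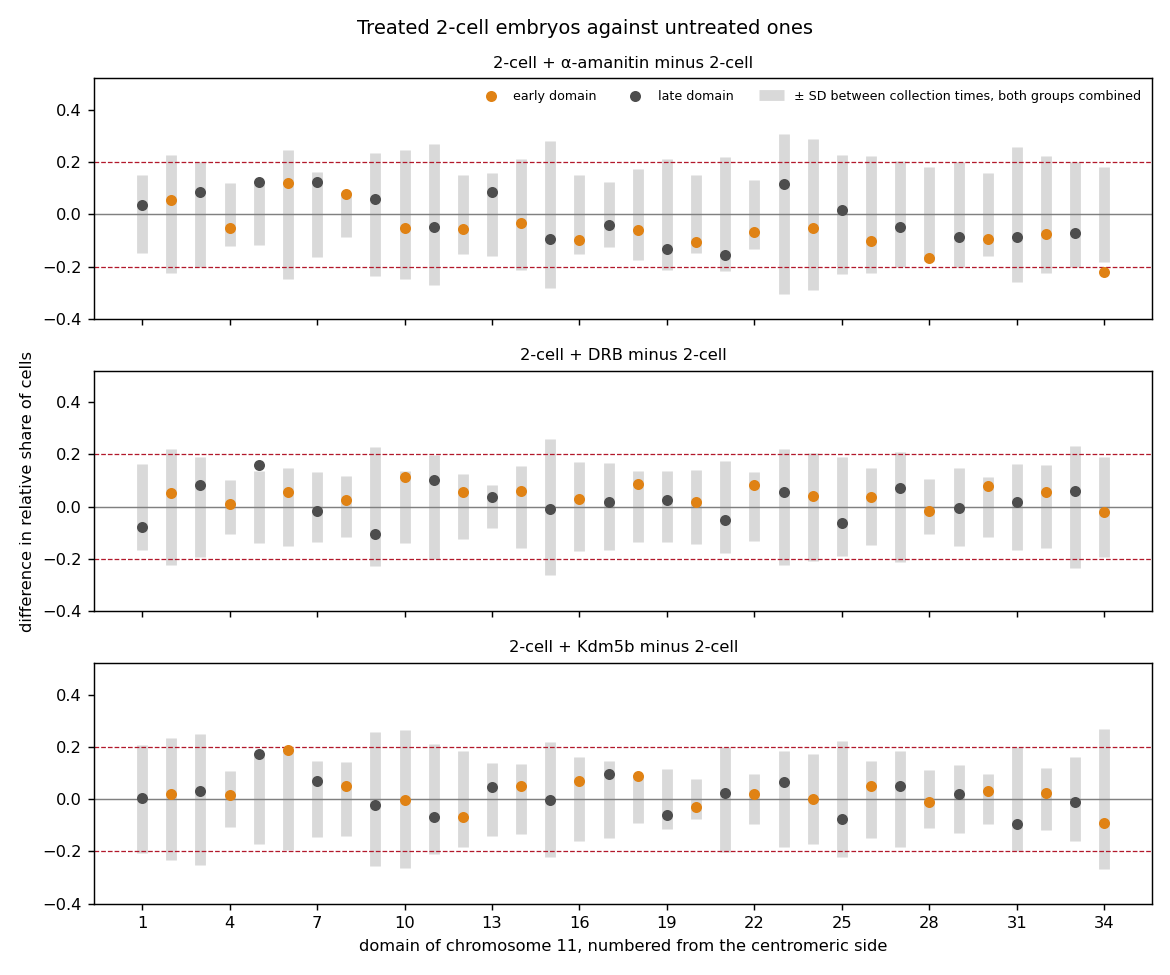
Difference in relative share between treated and untreated 2-cell embryos (y axis) for each of 34 domains (x axis), early domains in orange and late ones in dark grey. Light bars span plus and minus the combined SD between collection times, and dashed lines mark 0.2. With α-amanitin only domain 34 passes a dashed line, at -0.221.

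Single domains rarely moved by 0.2 after treatment. On chromosome 11, 0 of 34 domains were earlier and 1 was later after α-amanitin, against 1.21% and 0.538% of all 744. None passed in either direction with DRB (0.538% and 0.269% of all) or with Kdm5b (0.538% and 0%). With a limit of 0.1, 4 domains were earlier and 6 later after α-amanitin, against 11.3% and 11.6% of all domains, 3 and 1 with DRB (8.6% and 9.27%), and 2 and 0 with Kdm5b (5.91% and 4.17%). The α-amanitin domain past 0.2 was domain 34, chr11:113050001-117050000, with 97 genes, the highest GC content of the 34 at 49.5%, and the genes Slc39a11, Sdk2 and Rnf157 as its longest. It was replicated in 26 of 63 control cells (41.3%, 29 to 54.4%), 10 of 42 α-amanitin cells (23.8%, 12.1 to 39.5%), 35 of 67 DRB cells (52.2%, 39.7 to 64.6%) and 19 of 55 Kdm5b cells (34.5%, 22.2 to 48.6%). Over collection times its relative share ran from -0.263 to 0.060 in controls and from -0.491 to -0.089 after α-amanitin, so the ranges overlap, although the difference was larger than the combined SD between times. Without the 21 control cells of 35 h the difference was -0.163, under 0.2, and at shared times it was -0.239. The last 5 Mb, left out of the region, were at -0.069 in controls and -0.346 after α-amanitin.

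The next domains after α-amanitin were 28 (-0.167) and 21 (the dynein gene Dnah9 and Shisa6; -0.156) on the later side, and 7 (0.125), 5 (the long gene 5730522E02Rik; 0.123) and 6 (with Fancl; 0.120) on the earlier side. Without the treated cells of 35 h domain 21 was at -0.223. Domain 5 was earlier in each treated group, by 0.123, 0.159 and 0.172, and each time by more than its combined SD between times. With DRB and Kdm5b it was the 1 domain of 34 to do so, and with α-amanitin it was joined by domain 34. The share of all autosomal domains past this limit was not counted. The treated groups share 1 control, whose SD between times for domain 5 was 0.072, so nothing is read from the repeat. In the shared controls it was low, at 21 of 63 cells (33.3%, 22 to 46.3%), against 39 of 66 zygotes (59.1%, 46.3 to 71%). Besides domain 5, the largest moves with DRB were domains 10 (the channel-interacting gene Kcnip1, Ranbp17 and Fbxw11; 0.112) and 11 (Dock2, a guanine exchange factor of immune cells; 0.103), and on the later side 9 (-0.104), 1 (-0.076) and 25 (-0.062). With Kdm5b they were domains 6 (0.187) and 17 (the muscle sarcoglycan gene Sgcd and Olfr56; 0.098), and on the later side 31 (Cep112 and Prkca; -0.093), 34 (-0.091) and 25 (-0.077). At shared times 2 domains with Kdm5b reached 0.2, domain 6 (0.291) and domain 23 (0.209), and 2 with α-amanitin, domains 3 (0.228) and 6 (0.220).

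The genes of the region were read in lists by function or cluster, each gene taking the mean of the bins it overlaps. Neighbouring genes share bins and are not independent. Over all 1427 genes of the region, the median relative share was 0.039 (2-cell), 0.292 (4-cell) and 0.264 (morula), against 0.023, 0.124 and 0.211 for 16154 genes of the other autosomes. Morula values were above 2-cell values for 1360 of the 1427 genes. After α-amanitin 1240 of the 1427 were below control, with a median difference of -0.091, against -0.039 elsewhere.

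Lists of transcription, chromatin and cell cycle genes had counts near those of the whole region, where 1360 of 1427 genes were higher in morulae and 1240 lower after α-amanitin, so nothing particular to them is read from the counts. Of 16 genes of DNA replication, repair and the cell cycle, 16 were higher in morulae than in 2-cell embryos, with medians of 0.126 (2-cell), 0.403 (4-cell) and 0.312 (morula). The tumour suppressor gene Trp53 had 0.02 in 2-cell embryos and 0.27 in morulae, the repair gene Brca1 0.13 and 0.32, the topoisomerase gene Top2a 0.02 and 0.31 and the replication licensing gene Cdc6 -0.01 and 0.30. All 16 were lower after α-amanitin than in controls, with a median difference of -0.135. Over collection times the list's median ran from -0.036 to 0.147 in controls and from -0.171 to 0.117 after α-amanitin, so the ranges overlap. Among 12 genes of RNA polymerase II and translation factors, 11 were lower after α-amanitin, at a median of -0.079. Polr2a itself was the exception, at -0.03 in controls and -0.02 after α-amanitin, and at 0.23 in morulae. Med1 of the Mediator complex and the initiation factor genes Eif4a1 and Eif5a were higher in morulae (0.27, 0.23 and 0.23) than in 2-cell embryos (0.02, -0.01 and 0.01). The 7 ribosomal protein genes were each lower after α-amanitin (median -0.115): Rpl19 had -0.02 in controls and -0.07 after the drug, Rpl23 -0.02 and -0.16, Rpl23a 0.10 and -0.04 and Rpl26 0.15 and 0.05. Of 11 chromatin regulators, 11 were lower after α-amanitin (median -0.099), among them Suz12 and Ezh1 of Polycomb complex PRC2, the histone demethylase gene Kdm6b and the remodeller gene Bptf. Ezh1 had 0.23 in controls and 0.00 after the drug.

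Clusters did not all follow. The 10 genes of the Hoxb cluster, which pattern the body axis, had a median of -0.056 in 2-cell embryos and 0.296 in morulae. After α-amanitin their median was 0.081, above control in 10 of 10, while 1240 of 1427 genes of the region were below it. The 10 genes span few bins and are 1 locus. With DRB and Kdm5b they were at 0.171 and 0.089, against the same low control. Over collection times the cluster ran from -0.367 to 0.147 in controls and from -0.242 to 0.425 after α-amanitin, and these ranges overlap widely. Hoxb1, Hoxb2, Hoxb3 and Hoxb4 were each at -0.06 in controls and 0.30 in morulae. In the same domain 30, the 21 type I keratin genes, structural genes of epithelia, were below control after α-amanitin in 21 of 21, with a median of -0.187 against -0.009. Krt14 and Krt17 were at -0.19 and -0.21, Krt19 at -0.23, and Krt10 at 0.03.

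The cytokine, myosin and globin clusters differed in stage pattern. Among the 6 genes of the T helper cytokine cluster, Il4, Il5, Il13 and Il3 were higher in morulae (0.32, 0.30, 0.32 and 0.30) than in 2-cell embryos (0.15, 0.12, 0.15 and 0.18), and 6 of 6 were lower after α-amanitin. The 11 chemokine genes divided by domain: Ccl2 in domain 27 was at 0.04 in 2-cell embryos and -0.11 in morulae, while Ccl3, Ccl4 and Ccl5 in domain 28 had 0.20, 0.21 and 0.09 and then 0.27, 0.30 and 0.23. The muscle myosin genes Myh1, Myh2, Myh3 and Myh4 were each at -0.08 in 4-cell embryos, against 0.15, 0.17, 0.18 and 0.14 at the 2-cell stage and 0.15, 0.15, 0.16 and 0.14 at the morula stage. The embryonic and adult α-globin genes Hba-x, Hba-a1 and Hba-a2 shared bins and were at 0.12 in 2-cell embryos, 0.31 in 4-cell embryos and 0.29 with DRB.

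Developmental and metabolic genes also had counts near those of the region. Of 15 developmental factors, 14 were higher in morulae than in 2-cell embryos. Bcl11a, a repressor of fetal globin, had 0.11 and 0.22, while Meis1 was at -0.14 and -0.12 and Sox9 at 0.01 and 0.04. After α-amanitin 13 of the 15 were below control. Of 12 signalling genes, 11 were higher in morulae. After α-amanitin 8 of the 12 were lower, a smaller share than the 1240 of 1427 of the region. Their median difference was -0.041, against -0.091 over the region. Among the signalling genes, the growth factor receptor gene Erbb2 had 0.01 and 0.25 in 2-cell embryos and morulae, and the ligand gene Wnt3 -0.00083 and 0.35. Egfr, which encodes a relative of ERBB2, was at 0.11 and 0.09, and the inhibitor gene Nog at -0.02 and 0.10. All 12 metabolic genes were lower after α-amanitin (median -0.147), among them Acly and Acaca of fatty acid synthesis (0.03 in controls and -0.21 after the drug, and 0.21 and 0.06), Aldoc of glycolysis (0.13 and 0.03) and the proton pump gene Atp6v0a1 (0.21 and -0.02). The imprinted Zrsr1 and its host Commd1 were at 0.21 each in 2-cell embryos, at 0.05 and 0.07 after α-amanitin, at 0.06 and 0.05 with DRB and at 0.22 each with Kdm5b. The 5 longest genes had middling values: Tenm2 (1229 kb, domains 12 and 13) was at 0.01 in 2-cell embryos and -0.14 in morulae, Sgcd at -0.01 and 0.01, Asic2 at 0.05 and -0.07, 5730522E02Rik at -0.07 and -0.02 and Slit3 at 0.12 and 0.15.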

How the data were processed

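Single cells of preimplantation embryos were sequenced, and the authors deposited binary replication states (1 replicated, 0 not), the unit other, for 50 kb bins. Per the submitters' processing notes, reads were treated with Bowtie2 2.3.5, SAMtools 1.9 and bedtools 2.29.0 on mm10. By the methods, counts were scaled to the library's total and to the bin's mean over cells of the same stage, smoothed over 15 bins, segmented and cut into 2 states, so a gain or loss common to a whole stage cannot be seen, and treated groups were scaled within their own sets. Pronuclei assigned to the wrong parent by alleles were exchanged by the authors. Read depth per cell is unknown from states. Of the labelled samples, 283 had no column and were not analysed here.

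Cells with a score of 10 to 90% were kept. Domains were cut where the mean relative share of 4-cell to morula cells changed sign, and runs under 10 bins were joined to their neighbours. GC content, repeats and promoters came from RefSeq, GRCm38.p6. Protein-coding genes came from the GENCODE annotation, so gene and promoter counts differ in source. Intervals are exact (Clopper-Pearson) and cover counting error only. Times with under 3 cells gave no spread. Python 3.11.15, NumPy 2.4.6, pandas 2.3.3, SciPy 1.17.1 and Matplotlib 3.10.9 were used, and the code was tested on simulated data. Named genes were the first 4 of each list, the longest genes of the 3 domains that moved most each way against 2-cell embryos and of the 3 earliest and 3 latest 2-cell domains, and the 5 longest genes; others were named after their values were seen, and some genes of these lists are not reported here. The chromosome, domains and lists were chosen with earlier results of these data known. Alternatives were interval-averaged shares, quality-passed cells, other baselines, medians, shared times, 2 Mb windows, other thresholds and leaving out collection times. GC classes, segments and spreads per domain were added after the data were seen.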

Additional observations from a re-analysis of the deposited data

How the results depend on the processing

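Of 59 alternatives to the excess, 58 moved it by less than the spread between collection times. The exception was the 16-cell excess, which was 0.107 with quality-passed cells, against 0.123. Leaving out 1 collection time at a time gave 0.112 to 0.126 for the 16-cell excess and 0.0229 to 0.478 for the 16-cell contrast, which rests on the 31 cells of 80 h. All 56 alternatives to the contrast and all 27 to the differences of treated groups stayed within that spread, as did 80 of 80 treated differences without 1 time. Signs near 0 turned: the IVF excess ran from -0.0170 to 0.0115 and the parthenote excess from -0.0165 to 0.0365 without 1 time, and the latter was -0.0213 with quality-passed cells. The IVF contrast ran from -0.0485 to 0.00909 and the parthenote contrast from -0.0168 to 0.0242. The difference in contrast ran from -0.00267 to 0.0472 with DRB and from -0.0515 to 0.0112 with Kdm5b.

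Counts of domains past 0.2 were less stable. With a limit of 0.1, the counts after α-amanitin were 4 earlier and 6 later, with DRB 3 and 1, with Kdm5b 2 earlier, and in morulae 13 earlier and 9 later. At shared times 2 were earlier after α-amanitin and 2 with Kdm5b. Windows of 2 Mb gave 2 later after α-amanitin and 11 earlier in morulae. Without 1 collection time, 0 to 1 were earlier and 0 to 2 later after α-amanitin, 0 to 2 earlier with Kdm5b, and 3 to 5 earlier and 5 to 6 later in morulae. The cause of these changes was not tested. Leaving out control cells of 35 h gave the value of 0 later after α-amanitin and that of 5 earlier in morulae. No paired analysis was possible because no label ties a cell or nucleus to an embryo. Of the pronuclei, 10 label numbers were kept in both groups. Deviations of same-numbered nuclei from their group means correlated at -0.0374 to 0.0775, 0 of them over 0.1, and the mean excess of maternal minus paternal nuclei was 0.00893 over these 10 and 0.00459 over all nuclei. This alternative was chosen after seeing the data. Each group's number of cells and the pooling of cells set the precision.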

Other observations

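The ends left out of chromosome 11 differed from each other. The first 13 Mb had a relative share of 0.0916 (4-cell), 0.121 (16-cell) and 0.0910 (morula), beside 0.0988, 0.117 and 0.102 for the region, but -0.0457 in 2-cell embryos and -0.0632 with DRB, where the region had 0.0339 and 0.0694. The last 5 Mb were at 0.198 in morulae, but at -0.280 in IVF zygotes, -0.149 in parthenotes, -0.143 and -0.138 in maternal and paternal pronuclei, -0.181 with Kdm5b and -0.0957 with DRB. Next to them, domain 34 was at -0.235 in IVF zygotes, -0.136 in parthenotes, -0.167 and -0.0538 in the pronuclei, -0.147 with Kdm5b and -0.075 with DRB.

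Paternal pronuclei had 2 domains far below their mean, domain 7 at -0.361 and domain 9 (Asb3, Stc2 and Gm17332) at -0.358, where maternal pronuclei had -0.084 and -0.153. Domain 7 was replicated in 3 of 17 paternal nuclei (17.6%, 3.80 to 43.4%) and in 9 of 21 maternal nuclei (42.9%, 21.8 to 66%), and these intervals overlap.

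The variability score of a bin depends only on its share of cells replicated, and is highest where as many cells are replicated as not. It was lowest in morulae, at 0.499 on chromosome 11 and 0.534 elsewhere. On chromosome 11 it was highest after α-amanitin, at 0.838 (0.778 elsewhere, where parthenotes had 0.802).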
